A study of Mus musculus with 16 samples.

Results

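The 41 genes described here encode proteins that copy the genome or divide the cell, and their RNA was read in whole mouse lung after bleomycin or saline and an oligonucleotide that blocks a microRNA site in Cav1. They are listed by name as genes of mitosis (31) and of the S phase of the cell cycle (10). A spot on the array was found for 40 of them, 30 mitotic and 10 S-phase, out of 20863 genes with a symbol. Ccnb1, a mitotic cyclin, was not analysed here. Genes with several spots were read from their brightest spot on average. A gene was tested if 2 or more arrays read it above their 25th percentile, which left 20304 genes and dropped 0 of these 40.

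Total RNA from whole lungs of C57BL/6 mice aged 9 to 12 weeks was hybridised to 16 Agilent single-colour arrays. The 4 groups, each under a blocker, were bleomycin with the CAV1 target site blocker (6 arrays), bleomycin with the control blocker (6), phosphate-buffered saline (PBS) with the CAV1 blocker (2) and PBS with the control blocker (2). Bleomycin, a DNA-breaking drug that injures the lung and is used to model fibrosis, was put into the trachea at 1 unit/kg. The CAV1 blocker (5 mg/kg) or the control blocker, whose dose is not stated, was given by the same route 3 times, 4 and 2 days ahead of bleomycin or PBS and 4 days later, so no group was left without a blocker. The time of lung collection is not stated. Nothing in the labels states that samples came from different animals, and the p-values then reflect only the spread between samples, which may be technical.

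Cells that have left the cycle keep most of these genes low. The S-phase genes are switched on by E2F factors when a cell commits to division, and the mitotic genes come on later, through a DNA element called the cell cycle genes homology region (CHR), often with CCAAT boxes bound by NF-Y, and with the help of FOXM1. In the healthy adult lung few cells divide, and after bleomycin injury alveolar type 2 cells, endothelial cells, fibroblasts and macrophages are all known to divide.

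The promoters of the 2 sets differ in their letters, and 4 of them are printed in full because they belong to the mitotic and S-phase members with the smallest p after bleomycin among those that hold a searched motif. RefSeq windows from 250 bases before to 50 bases after the gene start (build GRCm38.p6) were at hand for 25 mitotic and 10 S-phase members. The windows are those of Ube2c (chr2:164769679-164769978, plus strand), Cdc20 (chr4:118437294-118437593, minus strand), Rrm2 (chr12:24708004-24708303, plus strand) and Mcm2 (chr6:88898731-88899030, minus strand). Capitals mark a CHR (TTTGAA or TTCGAA) or a CCAAT box (CCAAT), on either strand.
Ube2c: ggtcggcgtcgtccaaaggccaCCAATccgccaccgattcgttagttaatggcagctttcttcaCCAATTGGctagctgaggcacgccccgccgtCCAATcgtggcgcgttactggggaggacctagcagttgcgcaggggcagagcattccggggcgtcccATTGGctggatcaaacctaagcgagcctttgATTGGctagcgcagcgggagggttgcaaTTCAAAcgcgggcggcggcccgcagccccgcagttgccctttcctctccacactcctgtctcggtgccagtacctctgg
Cdc20: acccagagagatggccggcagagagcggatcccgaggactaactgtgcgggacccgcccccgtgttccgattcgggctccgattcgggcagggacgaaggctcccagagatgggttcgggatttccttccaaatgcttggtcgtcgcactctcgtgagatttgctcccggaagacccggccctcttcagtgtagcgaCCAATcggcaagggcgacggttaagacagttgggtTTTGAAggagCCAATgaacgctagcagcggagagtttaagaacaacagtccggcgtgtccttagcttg
Rrm2: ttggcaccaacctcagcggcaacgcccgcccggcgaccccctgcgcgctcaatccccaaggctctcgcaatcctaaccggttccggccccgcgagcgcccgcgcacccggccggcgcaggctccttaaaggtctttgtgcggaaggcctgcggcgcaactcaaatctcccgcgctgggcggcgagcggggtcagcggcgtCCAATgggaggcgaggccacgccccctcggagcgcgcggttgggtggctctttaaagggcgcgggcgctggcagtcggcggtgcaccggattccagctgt
Mcm2: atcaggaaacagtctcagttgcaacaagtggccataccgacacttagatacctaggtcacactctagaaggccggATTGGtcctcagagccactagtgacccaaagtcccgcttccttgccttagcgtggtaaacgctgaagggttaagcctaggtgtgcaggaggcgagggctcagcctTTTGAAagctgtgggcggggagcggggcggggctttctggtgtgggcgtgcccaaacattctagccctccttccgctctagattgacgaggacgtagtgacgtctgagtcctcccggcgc
Counted from the gene start, the CHR begins at position -29 in Ube2c and at -18 in Cdc20, and CCAAT boxes stand in the same windows. In Rrm2 only a CCAAT box is marked, and in Mcm2 both motifs are.

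Over all mitotic members with a window, 23 of 26 windows (88.5%; Prc1 has 2 windows) held a CHR, against 1 of 10 S-phase windows (10%) and 6316 of the 32851 windows of all genes (19.2%). A CCAAT box stood in 22 of 26 mitotic windows (84.6%), in 6 of 10 S-phase windows (60%) and in 37.4% of all windows. Both motifs together were in 80.8% of the mitotic windows, 10% of the S-phase windows and 7.52% of all windows. An E2F motif (TTTCCCGC, TTTGGCGC, TTTCGCGC or TTTGCCGC, either strand) was found in 1 mitotic window (3.85%), that of Cdk1, in 4 S-phase windows (40%) and in 2.26% of all windows. Motifs of different kinds overlapped in 1 mitotic window, in 0 S-phase windows and in 0.161% of all windows. A match describes the letters in this window and is not a measured binding site.

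The CHR stretches below come from the 8 mitotic members with the smallest p after bleomycin among those with the motif, and show where it lies and what stands beside it. Capitals mark the match nearest to the gene start, and the 10 bases on each side are in lower case.
Ube2c (chr2:164769890-164769915, plus strand): agggttgcaaTTCAAAcgcgggcggc
Cdc20 (chr4:118437346-118437371, minus strand): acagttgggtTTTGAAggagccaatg
Prc1 (chr7:80294436-80294461, plus strand): tctggctcggTTTGAAttccgcgggg
Mki67 (chr7:135716462-135716487, minus strand): gccgttttggTTTGAAtcgggcgggc
Kif11 (chr19:37376353-37376378, plus strand): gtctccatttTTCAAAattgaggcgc
Aurka (chr2:172370523-172370548, minus strand): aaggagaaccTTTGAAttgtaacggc
Kif23 (chr9:61946782-61946807, minus strand): gattggcctgTTTGAAatgcgccggg
Anln (chr9:22389170-22389195, minus strand): ggcgctgaaaTTCAAAttttgaacgg
The match began between position -98 in Mki67 and position 33 in Aurka, where 1 is the gene start. The 4 S-phase members with an E2F motif were all helicase subunits or, in Cdc6, its loader, and the stretch nearest to the start is shown for each.
Mcm5 (chr8:75109350-75109377, plus strand): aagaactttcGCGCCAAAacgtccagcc
Mcm3 (chr1:20820276-20820303, minus strand): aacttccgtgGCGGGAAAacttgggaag
Cdc6 (chr11:98908003-98908030, plus strand): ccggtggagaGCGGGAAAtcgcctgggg
Mcm6 (chr1:128359735-128359762, minus strand): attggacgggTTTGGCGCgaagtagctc

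Bleomycin lungs carried more RNA of most mitotic genes than PBS lungs. Averaged over both blockers, 25 of 30 mitotic members and 5 of 10 S-phase members were higher after bleomycin, beside 4.25% of all genes (limma, adjusted p under 0.05 over 20304 genes). The median difference was 1.02 on the log2 scale over the mitotic members and 0.48 over the S-phase members, against 0.01 over all genes tested. No member was called lower, beside 1.68% of all genes. The share of all genes that rose by more than 1 on the log2 scale is not given here. Such a rise was seen in 16 mitotic members and in 0 S-phase members. In whole lung, more dividing cells and more of these RNAs per cell cannot be told apart.

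**Figure D1:**
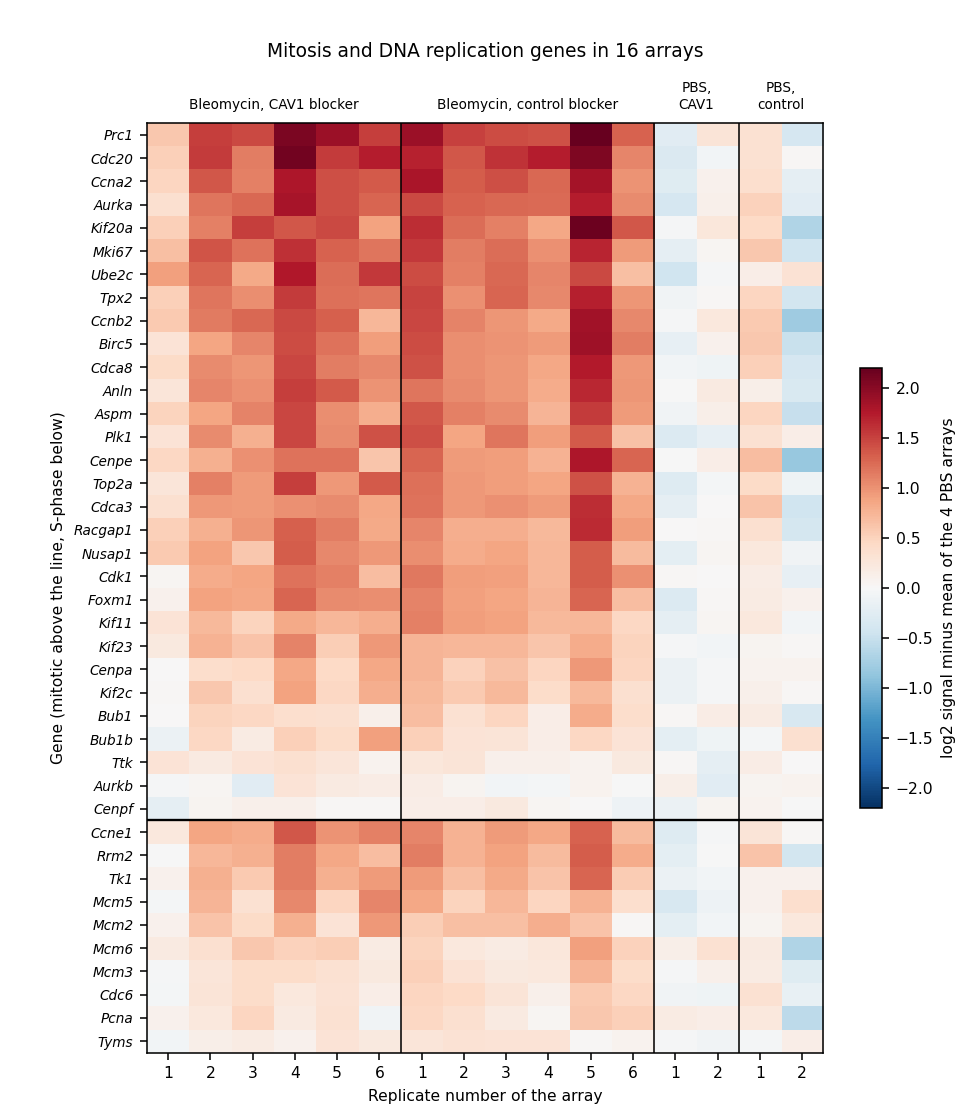
Log2 signal of each of the 40 members (rows, mitotic above the line and S-phase below, ordered by their difference after bleomycin) in each of the 16 arrays (columns, by group and replicate number), given as the difference from the mean of the 4 PBS arrays. Prc1 and Cdc20 are among the darkest rows in the bleomycin arrays, array 1 of the bleomycin CAV1 blocker group is pale, and Aurkb, Cenpf and Ttk stay near 0.

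A marker of cycling cells and genes that drive entry into mitosis rose. Mki67, the standard tissue marker of cycling cells, lay between 10.86 and 11.80 (median 11.45) in the bleomycin CAV1 blocker arrays, between 11.14 and 11.87 (median 11.38) in the bleomycin control blocker arrays, at 10.00 and 10.25 in the PBS CAV1 blocker arrays and at 10.79 and 9.76 in the PBS control blocker arrays, all log2 signals. Each of the 12 bleomycin arrays was above each of the 4 PBS arrays. The difference was 1.24 ± 0.186 (SE), a 2.35-fold rise (adjusted p = 0.0022). Ccna2, a cyclin of S phase and mitotic entry, measured 9.21 to 10.51 (median 10.09) after bleomycin with the CAV1 blocker, 9.73 to 10.57 (median 10.11) after bleomycin with the control blocker, 8.47 and 8.83 after PBS with the CAV1 blocker and 9.11 and 8.54 after PBS with the control blocker. Its arrays did not overlap either, and it rose by 1.34 ± 0.197 (adjusted p = 0.00198).

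Cdk1, the kinase that the mitotic cyclins switch on, gave 6.75 to 7.90 (median 7.54) in the bleomycin CAV1 blocker arrays, 7.43 to 8.04 (median 7.67) in the bleomycin control blocker arrays, 6.72 and 6.71 in the PBS CAV1 blocker arrays and 6.86 and 6.52 in the PBS control blocker arrays. Only array 1 of the bleomycin CAV1 blocker group fell among the PBS values, and the difference was 0.90 ± 0.162 (adjusted p = 0.0048). Cdk1 has 2 further spots, with mean log2 signals of 5.92 and 6.02, which lie below the array medians of 6.51 to 6.52, and they differed by 0.01 and 0.05. For Ccnb2, a cyclin partner of that kinase, the bleomycin CAV1 blocker arrays ran from 9.97 to 10.84 (median 10.59), the bleomycin control blocker arrays from 10.22 to 11.25 (median 10.47), the PBS CAV1 blocker arrays read 9.37 and 9.62, and the PBS control blocker arrays 9.97 and 8.62. The PBS control arrays stood 1.34 apart in this gene, and the lowest bleomycin value met the highest PBS value to 2 decimals. Its difference was 1.14 ± 0.227 (adjusted p = 0.0082).

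Foxm1, the transcription factor of the mitotic genes, measured 7.48 to 8.66 (median 8.33) after bleomycin with the CAV1 blocker, 8.06 to 8.67 (median 8.28) after bleomycin with the control blocker, 7.08 and 7.41 after PBS with the CAV1 blocker and 7.57 and 7.48 after PBS with the control blocker. Again a single bleomycin array, the first of the CAV1 blocker group, was as low as PBS. The rise was 0.89 ± 0.163 (adjusted p = 0.00494). Plk1, a kinase that acts from mitotic entry to cytokinesis, lay at 9.09 to 10.26 (median 9.84) after bleomycin with the CAV1 blocker, 9.44 to 10.22 (median 9.84) after bleomycin with the control blocker, 8.50 and 8.61 after PBS with the CAV1 blocker and 9.14 and 8.94 after PBS with the control blocker. Only the lowest bleomycin array fell below a PBS array, and the difference between bleomycin and PBS was 1.03 ± 0.181 (adjusted p = 0.00413). The kinase Aurka and its activator Tpx2 rose by 1.28 ± 0.204 (adjusted p = 0.00265) and by 1.18 ± 0.18 (adjusted p = 0.00233).

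Genes of chromosome structure and the spindle moved with them. Top2a, the topoisomerase that untangles sister chromatids, gave 7.70 to 8.94 (median 8.46) in the bleomycin CAV1 blocker arrays, 8.20 to 8.82 (median 8.36) in the bleomycin control blocker arrays, 7.14 and 7.38 in the PBS CAV1 blocker arrays and 7.85 and 7.34 in the PBS control blocker arrays. Array 1 of the bleomycin CAV1 blocker group was the only one to fall below a PBS array, and the rise was 1.02 ± 0.179 (adjusted p = 0.00413). Kif11, the motor that pushes spindle poles apart, measured 6.92 to 7.46 (median 7.34) after bleomycin with the CAV1 blocker, 7.08 to 7.73 (median 7.43) after bleomycin with the control blocker, 6.42 and 6.66 after PBS with the CAV1 blocker and 6.85 and 6.57 after PBS with the control blocker. It rose by 0.72 ± 0.115 with no overlap (adjusted p = 0.00262). The spindle proteins Aspm (1.04) and Nusap1 (0.90), the microtubule depolymerase Kif2c (0.55), the kinetochore motor Cenpe (1.02) and the centromeric histone Cenpa (0.56) rose as well, with adjusted p-values from 0.00233 to 0.017.

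Genes that end mitosis and part the daughter cells also rose. Prc1, which bundles the central spindle, ran from 9.59 to 11.07 (median 10.51) after bleomycin with the CAV1 blocker and from 10.29 to 11.19 (median 10.46) after bleomycin with the control blocker, against 8.75 and 9.28 after PBS with the CAV1 blocker and 9.33 and 8.62 after PBS with the control blocker. No array overlapped, and the rise of 1.56 ± 0.229, or 2.94-fold, was the largest of the 40 members (adjusted p = 0.00198). Cdc20, which switches on the anaphase-promoting complex, measured 10.16 to 11.75 (median 11.17) after bleomycin with the CAV1 blocker, 10.71 to 11.68 (median 11.27) after bleomycin with the control blocker, 9.31 and 9.57 after PBS with the CAV1 blocker and 9.97 and 9.66 after PBS with the control blocker. It rose by 1.51 ± 0.22 (adjusted p = 0.00197), again without overlap.

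Ube2c, the ubiquitin-conjugating enzyme of the same complex, whose promoter is printed above, had 9.69 to 10.62 (median 10.10) in the bleomycin CAV1 blocker arrays, 9.51 to 10.31 (median 10.04) in the bleomycin control blocker arrays, 8.42 and 8.83 in the PBS CAV1 blocker arrays and 8.99 and 9.16 in the PBS control blocker arrays. It had the smallest p of the members, with a rise of 1.22 ± 0.166 (adjusted p = 0.00126), and a second spot of the gene gave 1.17. Kif20a (1.27), Kif23 (0.69), Racgap1 (0.96) and Anln (1.07), which build the midzone and the cleavage furrow, rose with no overlap between bleomycin and PBS arrays and adjusted p-values from 0.00371 to 0.00541. In all, 14 of 30 mitotic members and 0 of 10 S-phase members had each bleomycin array above each PBS array, beside 1.04% of all genes.

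**Figure D2:**
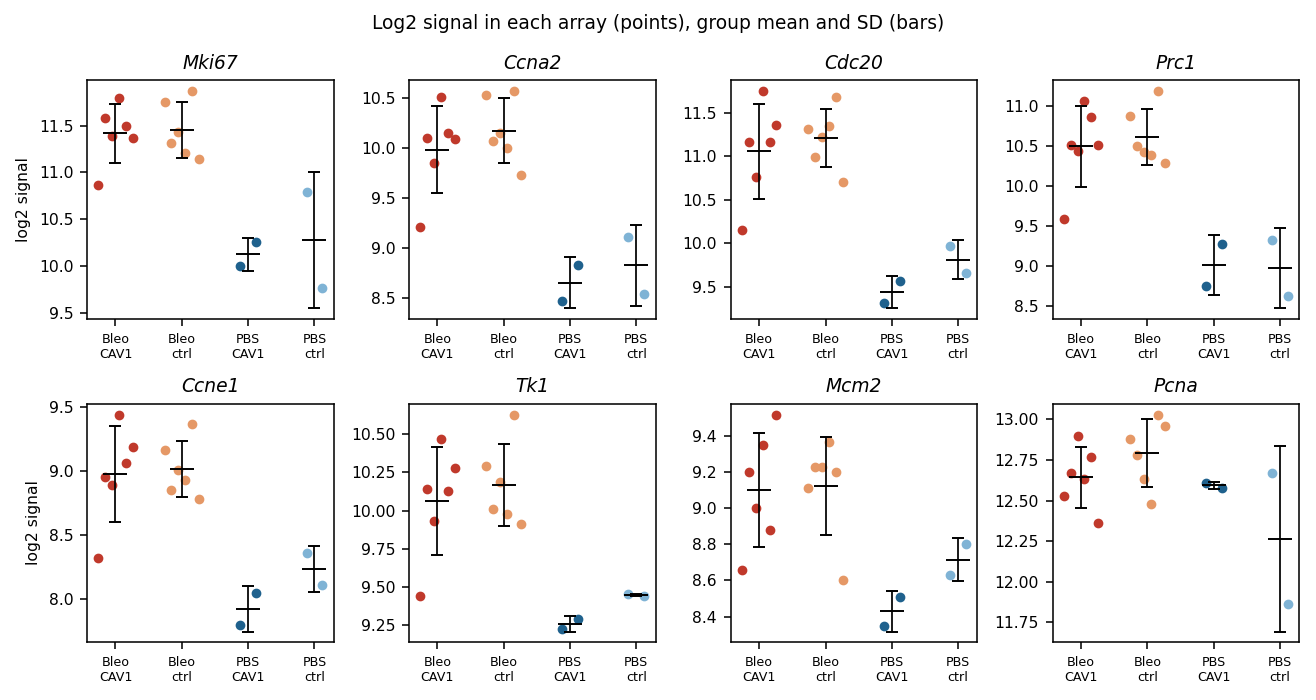
Log2 signal in each array (points) with the group mean and SD (bars) for 4 mitotic (upper row) and 4 S-phase members (lower row), in the order bleomycin CAV1 blocker, bleomycin control blocker, PBS CAV1 blocker, PBS control blocker. The axes do not start at 0 and differ between genes. Mki67, Ccna2, Cdc20 and Prc1 show no overlap between bleomycin and PBS, while Pcna does.

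Within the chromosomal passenger complex, which steers chromosome attachment and cytokinesis, the subunits were read very differently. Birc5 and Cdca8, its survivin and borealin subunits, rose by 1.10 ± 0.216 (adjusted p = 0.00785) and 1.09 ± 0.191 (adjusted p = 0.00414). Aurkb, its kinase, gave 5.59 to 6.13 (median 5.94) in the bleomycin CAV1 blocker arrays, 5.78 to 6.00 (median 5.86) in the bleomycin control blocker arrays, 5.96 and 5.59 in the PBS CAV1 blocker arrays and 5.89 and 5.91 in the PBS control blocker arrays. The Aurkb spot was below the median of the array throughout, and its difference was 0.05, with a 95% interval from -0.14 to 0.24 (adjusted p = 0.859). Cenpf, a kinetochore protein, and Ttk, a checkpoint kinase, were also under 7 on all 16 arrays, with differences of 0.05 (adjusted p = 0.82) and 0.21 (adjusted p = 0.0739). A spot this dim limits what a difference can show.

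The spindle checkpoint genes Bub1 and Bub1b were brighter but did not pass the test either. Bub1 measured 7.21 to 7.69 (median 7.56) after bleomycin with the CAV1 blocker, 7.36 to 8.02 (median 7.63) after bleomycin with the control blocker, 7.23 and 7.37 after PBS with the CAV1 blocker and 7.38 and 6.85 after PBS with the control blocker, so its groups overlapped widely. The difference was 0.38 ± 0.124 (adjusted p = 0.0898), and the 10 spots of Bub1 gave 0.27 to 0.47. In the same limma fit over spots, their adjusted p-values ran from 0.0402 to 0.332, so the call depends on the spot. Bub1b differed by 0.36 ± 0.136 (adjusted p = 0.16). With Aurkb, Cenpf and Ttk these are the 5 mitotic members not called.

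Of the S-phase genes, Ccne1, Tk1, Rrm2, Mcm2 and Mcm5 rose, and Mcm3, Mcm6, Cdc6, Tyms and Pcna did not pass. Ccne1, the cyclin that starts S phase, lay at 8.32 to 9.44 (median 9.00) after bleomycin with the CAV1 blocker, 8.78 to 9.37 (median 8.97) after bleomycin with the control blocker, 7.80 and 8.05 after PBS with the CAV1 blocker and 8.36 and 8.11 after PBS with the control blocker. The first bleomycin CAV1 blocker array was the only one to reach down to PBS, and the rise of 0.91 ± 0.154 was the largest of the S-phase members (adjusted p = 0.00358). A dimmer second spot of Ccne1, at a mean of 6.33, differed by 0.13.

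The makers of nucleotides gave mixed results. Tk1, the thymidine kinase of dividing cells, measured 9.44 to 10.47 (median 10.13) after bleomycin with the CAV1 blocker, 9.91 to 10.63 (median 10.10) after bleomycin with the control blocker, 9.22 and 9.29 after PBS with the CAV1 blocker and 9.45 and 9.44 after PBS with the control blocker, and the same bleomycin array reached down to PBS. It rose by 0.77 ± 0.154 (adjusted p = 0.00862). Rrm2, the regulated subunit of ribonucleotide reductase, ran from 9.71 to 10.85 (median 10.47) in the bleomycin CAV1 blocker arrays and from 10.41 to 11.06 (median 10.57) in the bleomycin control blocker arrays, against 9.51 and 9.71 in the PBS CAV1 blocker arrays and 10.35 and 9.31 in the PBS control blocker arrays. Its PBS control arrays stood 1.04 apart, more than the fitted difference, and it rose by 0.81 ± 0.19 (adjusted p = 0.0194). Tyms, thymidylate synthase, differed by 0.18 ± 0.0745 (adjusted p = 0.202). Its spot was dim, with a median log2 signal of 6.86, near the array medians of 6.51 to 6.52, as was that of Cdc6 (6.80). Such a level limits what a difference can show.

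Of the replicative helicase, Mcm2 and Mcm5 were called and Mcm3 and Mcm6 were not. Mcm2 gave 8.66 to 9.52 (median 9.10) in the bleomycin CAV1 blocker arrays, 8.60 to 9.37 (median 9.22) in the bleomycin control blocker arrays, 8.35 and 8.51 in the PBS CAV1 blocker arrays and 8.63 and 8.80 in the PBS control blocker arrays. A single array of each bleomycin group lay within the PBS range, and the rise was 0.54 ± 0.146 (adjusted p = 0.0403). Mcm3 measured 10.88 to 11.32 (median 11.21) after bleomycin with the CAV1 blocker, 11.13 to 11.65 (median 11.27) after bleomycin with the control blocker, 10.88 and 11.02 after PBS with the CAV1 blocker and 11.09 and 10.65 after PBS with the control blocker, with a difference of 0.33 ± 0.107 (adjusted p = 0.0859). The difference was 0.61 for Mcm5 (adjusted p = 0.045) and 0.41 for Mcm6 (adjusted p = 0.131). The calls of Mcm2 and Mcm5 lay close to the threshold, and each was kept in 11 of 27 alternatives. The E2F motif stood in the windows of Mcm3, Mcm5 and Mcm6.

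Cdc6, which loads the helicase, lay at 6.47 to 6.91 (median 6.76) after bleomycin with the CAV1 blocker, 6.62 to 7.08 (median 6.95) after bleomycin with the control blocker, 6.43 and 6.42 after PBS with the CAV1 blocker and 6.85 and 6.34 after PBS with the control blocker, and differed by 0.31 ± 0.0994 (adjusted p = 0.0924). Pcna, the sliding clamp of the replication fork and of DNA repair, gave 12.36 to 12.90 (median 12.65) after bleomycin with the CAV1 blocker, 12.48 to 13.03 (median 12.83) after bleomycin with the control blocker, 12.61 and 12.58 after PBS with the CAV1 blocker and 12.67 and 11.86 after PBS with the control blocker. Only array 2 of the PBS control blocker group stood apart for Pcna, on the low side, and the difference was 0.29, with a 95% interval from 0.01 to 0.57 (adjusted p = 0.277). That array was also the lowest of the 16 for Mcm6, at 11.63, where the other 15 read from 12.41 to 13.18.

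**Figure D3:**
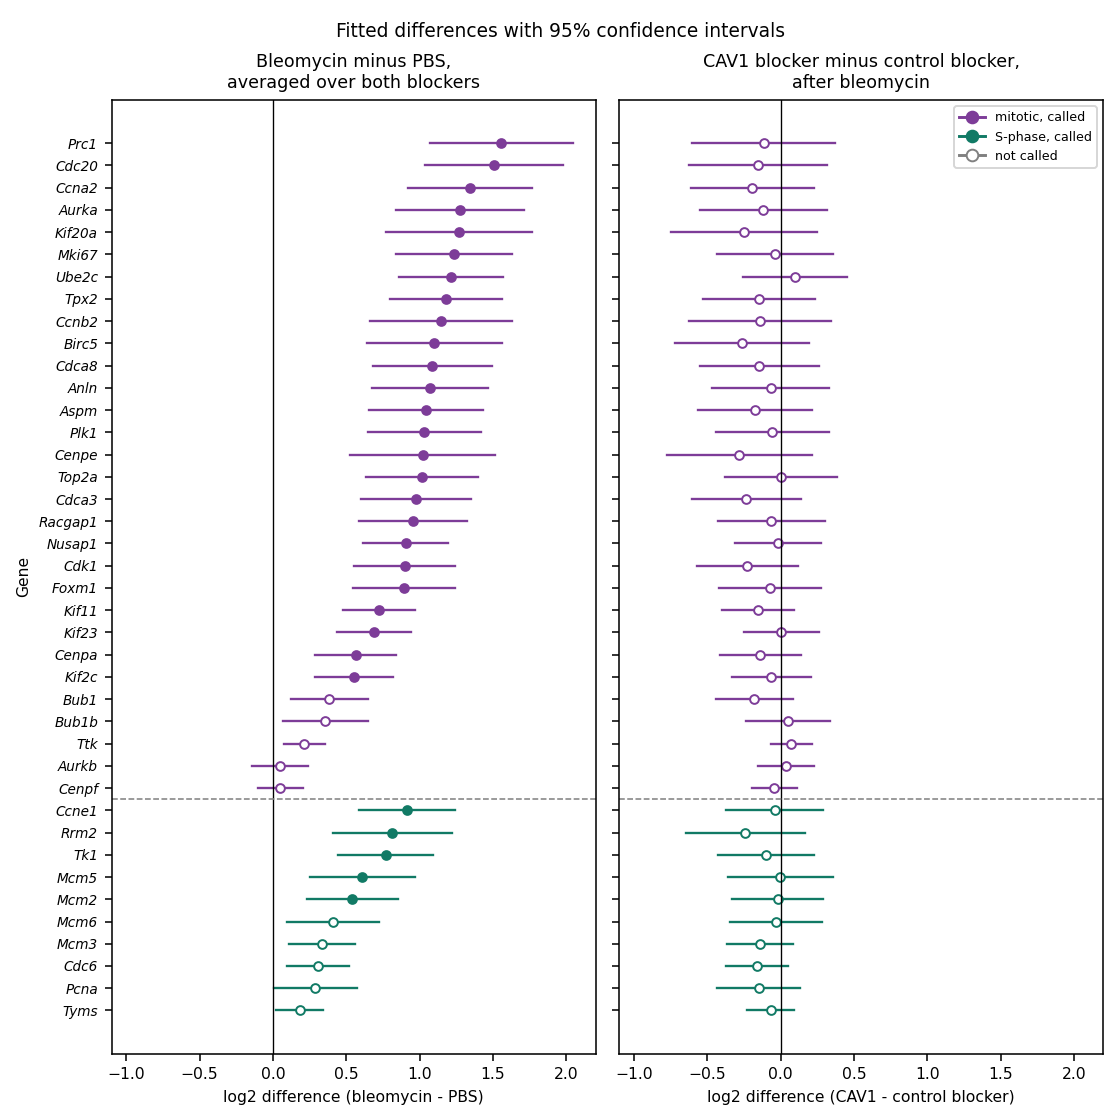
Fitted log2 difference of each member with its 95% confidence interval, for bleomycin minus PBS averaged over both blockers (left) and for the CAV1 blocker minus the control blocker after bleomycin (right). Filled points passed the test over all genes. The 25 called mitotic members run from 0.55 to 1.56 on the left, and on the right the 40 points lie between -0.28 and 0.10.

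Taken separately, each blocker gave fewer calls and similar medians. Under the CAV1 blocker (6 bleomycin arrays against 2 PBS arrays), 6 of 30 mitotic members (Mki67, Ccna2, Cdc20, Plk1, Nusap1 and Ube2c) and 1 of 10 S-phase members (Ccne1) were called higher, beside 0.345% of all genes. The median was 0.96 for the mitotic and 0.49 for the S-phase members, against -0.01 for all genes. Under the control blocker, 17 mitotic and 0 S-phase members were called higher, beside 1.96% of all genes, with medians of 1.00 and 0.49, against 0.03 for all genes. At an unadjusted p under 0.05, 27 mitotic and 6 S-phase members were higher under the CAV1 blocker and 26 and 7 under the control blocker, beside 7.15% and 10.5% of all genes.

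All 6 bleomycin arrays lay above both PBS arrays in 26 of 30 mitotic and 6 of 10 S-phase members under the CAV1 blocker, beside 8.38% of all genes. Under the control blocker this held for 25 mitotic and 4 S-phase members, beside 8.55%. The counts of calls moved widely when single arrays were left out, and the share of all genes called moved with them. Without array 1 of the bleomycin CAV1 blocker group the CAV1 blocker count was 23 mitotic members, where 3.55% of all genes were called in either direction. Without array 5 of that group it was 0, beside 0.0494%. Leaving out PBS CAV1 blocker array 1 or 2 leaves 1 array in that group, and the mitotic median was then 0.85 or 1.06. The control blocker count was 1 mitotic member without array 1 of the bleomycin control blocker group, beside 0.731% of all genes. It was 22 without array 1 of the bleomycin CAV1 blocker group, beside 3.42%. Without array 2 of the PBS control blocker group, which leaves 1 array there, the mitotic median under the control blocker was 0.64. Averaged over both blockers, leaving out 1 array gave 20 to 26 mitotic members and 1 to 7 S-phase members, the lowest counts being those without array 1 of the PBS CAV1 blocker group.

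The CAV1 blocker was also set against the control blocker in the bleomycin lungs, and no member differed past the threshold. After bleomycin, 0 of 30 mitotic and 0 of 10 S-phase members differed between the CAV1 and the control blocker (limma, adjusted p under 0.05), beside 1.61% of all genes. At an unadjusted p under 0.05 it was also 0 and 0, beside 9.08% of all genes. The median difference, CAV1 blocker minus control blocker, was -0.12 over the mitotic members and -0.08 over the S-phase members, against -0.01 over all genes. It was below 0 in 24 mitotic and 10 S-phase members, beside 54.4% of all genes.

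For the mitotic members called after bleomycin, the differences between blockers were small beside the response to bleomycin. For some other members they were not: Pcna differed by -0.15 between blockers and by 0.29 after bleomycin, and Cdc6 by -0.16 and 0.31. The differences between blockers ranged from -0.28 to 0.10 over the mitotic members and from -0.24 to -0.003 over the S-phase members. The 95% intervals of all 40 lay between -0.77 and 0.45. For Mki67 the difference was -0.04, with an interval from -0.43 to 0.36 (adjusted p = 0.991), and for Prc1 -0.12, from -0.60 to 0.37 (adjusted p = 0.968). Among the smallest p-values, Bub1 differed by -0.18 (interval -0.44 to 0.09, adjusted p = 0.812), Cdk1 by -0.23 (-0.57 to 0.12, adjusted p = 0.825) and Kif11 by -0.16 (-0.40 to 0.09, adjusted p = 0.835). Cdc6 (-0.16, adjusted p = 0.749) and Mcm3 (-0.14, adjusted p = 0.845) were first among the S-phase members. The intervals still hold changes of that size, so the groups are not shown to be alike.

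The sign of the mitotic median rested on 1 array. Without array 1 of the bleomycin CAV1 blocker group the median difference after bleomycin was 0.02 over the mitotic members and -0.01 over the S-phase members, with 0 calls as before. How often that array ranked lowest over all genes is not given here. Among the members, that array was the lowest of its 6 in 27 of 30 mitotic and 8 of 10 S-phase members. Its mean over the mitotic members was 8.36, where the other 5 arrays of the group had 8.85 to 9.27, the 6 bleomycin control blocker arrays 8.79 to 9.36, the 2 PBS CAV1 blocker arrays 7.89 and 8.06 and the 2 PBS control blocker arrays 8.35 and 7.83. So the mitotic mean of this array stood next to the highest PBS array.

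**Figure D4:**
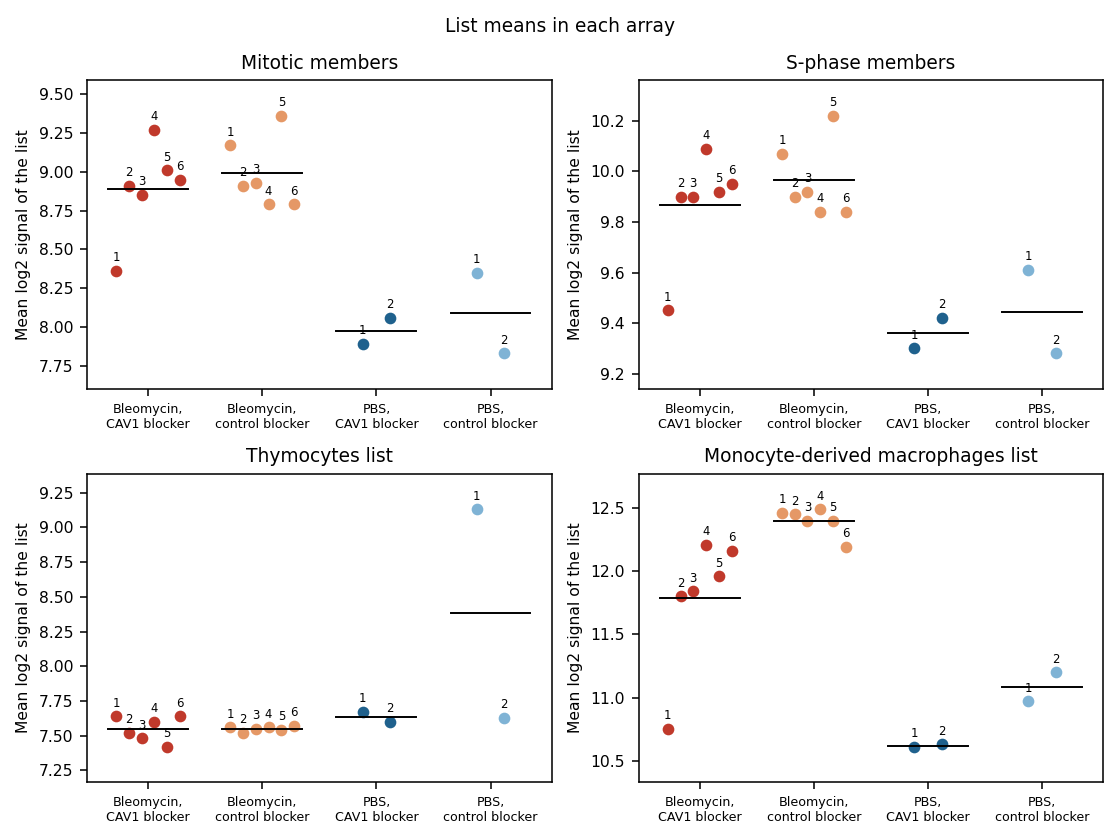
Mean log2 signal of the 30 mitotic members, the 10 S-phase members, a list of thymocyte markers and a list of monocyte-derived macrophage markers in each array (points, numbered by replicate), with group means as lines. Array 1 of the bleomycin CAV1 blocker group is low in 3 of the panels, and array 1 of the PBS control blocker group stands at 9.13 in the thymocyte panel, where the other 15 arrays have 7.42 to 7.67.

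Several marker lists stood apart in the same array. Its means for skeletal muscle (11.72), squamous epithelium (10.95) and erythroid precursors (9.79) were the highest of the 12 bleomycin arrays, while its macrophage mean was the lowest of them. A list of monocyte-derived macrophage genes held 15, 13 of them tested. After bleomycin, averaged over both blockers, the list had 11 members higher, beside 4.25% of all genes. Its mean was 10.75 in array 1 of the bleomycin CAV1 blocker group, 11.80 to 12.21 in the other 5 arrays of that group, 12.19 to 12.49 in the bleomycin control blocker arrays, 10.61 and 10.63 in the PBS CAV1 blocker arrays and 10.97 and 11.20 in the PBS control blocker arrays. Between the blockers after bleomycin, 13 of 13 macrophage genes were below 0, beside 54.4% of all genes, with a median of -0.52. Of them 1 (Ms4a7) was called lower, beside 1.61% of all genes called in either direction. The part of any of these cells in the mitotic signal of that array was not tested.

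The brightest arrays were also the same from gene to gene. Array 4 was the highest of its group in 25 of 30 mitotic members after bleomycin with the CAV1 blocker, and array 5 in 23 of 30 after bleomycin with the control blocker. That array of the control blocker group was the highest of all 16 in 17 mitotic and 6 S-phase members. How often these arrays ranked highest over all genes is not given here. Within the bleomycin control blocker group, arrays 1 and 5 had the highest mitotic means, at 9.17 and 9.36, against 8.79 to 8.93 in the other 4. They also were the 2 arrays labelled with an RNA integrity number of 10, where the other 14 were labelled 9, and its part in the result was not tested.

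After PBS, the CAV1 blocker gave no call in any member either. The count was 0 of 30 and 0 of 10, beside 0.31% of all genes, and 0 and 0 at an unadjusted p under 0.05, beside 12.8% of all genes. The median difference, CAV1 blocker minus control blocker, was -0.15 over the mitotic and -0.18 over the S-phase members, against 0.04 over all genes, from 2 arrays a group. The largest were -0.49 for Plk1 (95% interval -1.16 to 0.18) and 0.46 for Mcm6 (-0.09 to 1.00). The interaction, the bleomycin difference under the CAV1 blocker minus that under the control blocker, was called for 0 of 20304 genes. Its median was 0.02 over the mitotic and 0.03 over the S-phase members, with 0 members at an unadjusted p under 0.05, beside 9.22% of all genes. The widest reading was 0.54 for Ube2c (-0.16 to 1.25).

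The 2 PBS control blocker arrays were not alike. Array 1 exceeded array 2 in 27 of 30 mitotic and 7 of 10 S-phase members, by as much as 1.52 in Cenpe, 1.34 in Ccnb2 and 1.12 in Kif20a. These are 2 single arrays, and the share of all genes with that direction is not given here. Array 1 also carried thymocyte markers: Rag1, the recombinase of developing lymphocytes, read 9.87 there and 5.82 to 7.06 in the other 15 arrays, and Dntt, which adds bases at their joins, read 11.09 against 6.61 to 7.24. The mean of the 12 thymocyte genes was 7.42 to 7.64 in the bleomycin CAV1 blocker arrays, 7.52 to 7.57 in the bleomycin control blocker arrays, 7.60 and 7.67 in the PBS CAV1 blocker arrays and 9.13 and 7.63 in the PBS control blocker arrays. Thymocytes are known to divide fast, and their part in the mitotic signal of this array was not tested.

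Averaged over both blockers, 26 mitotic and 7 S-phase members rose without PBS control blocker array 1, with a mitotic median of 1.16, where 9.51% of all genes were called in either direction. Without it and array 1 of the bleomycin CAV1 blocker group together, a setting chosen after the data were seen, 26 mitotic and 9 S-phase members rose, with a mitotic median of 1.21 and 10.8% of all genes called. With all 16 arrays that share was 5.93%, so calls became more frequent over all genes too. Without PBS control blocker array 1, 2 of 10 S-phase members, Mcm6 and Pcna, were called for the CAV1 blocker after PBS and for the interaction, beside 19.9% and 14.9% of all genes. The PBS control blocker arm then is the single array 2, already low for both genes, and its spread is assumed to be that of the other groups, so these calls add nothing to those values.

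Markers of skeletal muscle were high in some arrays and low in others. The mean of 15 skeletal muscle genes ranged from 8.04 to 11.72 after bleomycin with the CAV1 blocker and from 7.84 to 11.04 after bleomycin with the control blocker, and was 7.74 and 8.01 after PBS with the CAV1 blocker and 12.88 and 10.64 after PBS with the control blocker. With that mean as a covariate, 25 mitotic and 3 S-phase members rose averaged over both blockers, beside 5.47% of all genes called in either direction. Under the CAV1 blocker 0 mitotic members rose, beside 0.0493% of all genes, and under the control blocker 8, beside 1.2%. Without the covariate these shares were 5.93%, 0.517% and 2.41%, so calls also became fewer over all genes. Alveolar type 2 markers, which define lung, were high throughout, with list means from 14.82 to 15.30.

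Other genes of division followed the mitotic members. Of 54 further mitotic genes tested, 35 rose and 1 fell after bleomycin averaged over both blockers, beside 4.25% and 1.68% of all genes, with a median of 0.55. Pimreg, a regulator of chromosome segregation, lay at 7.61 to 9.60 (median 9.02) after bleomycin with the CAV1 blocker, 8.40 to 9.37 (median 8.98) after bleomycin with the control blocker, 7.01 and 7.37 after PBS with the CAV1 blocker and 7.55 and 6.98 after PBS with the control blocker. It rose by 1.69 ± 0.263 (adjusted p = 0.00252). Ckap2 (1.19), Kif22 (1.15), Pbk (1.46), the kinetochore subunits Nuf2 (0.87) and Spc24 (0.70) also rose, with adjusted p-values from 0.0022 to 0.00441.

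Pttg1, the securin that guards sister chromatids, was the 1 that fell. It read 13.30 to 13.74 (median 13.47) in the bleomycin CAV1 blocker arrays and 13.30 to 13.49 (median 13.43) in the bleomycin control blocker arrays, against 14.00 and 13.89 in the PBS CAV1 blocker arrays and 13.86 and 13.39 in the PBS control blocker arrays. The second PBS control blocker array lay inside the bleomycin range, and the difference was -0.34 ± 0.0869 (adjusted p = 0.0309). It was named after its values were seen. Of the 54 genes, 3 rose under the CAV1 blocker alone, beside 0.345% of all genes, and 12 under the control blocker alone, beside 1.96%. Between the blockers after bleomycin, 0 of the 54 were called, beside 1.61% of all genes. The smallest p-values there were those of Cep55 (-0.19, adjusted p = 0.25), Hjurp (0.40, adjusted p = 0.312) and Mastl (0.21, adjusted p = 0.58).

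Of 51 further DNA replication genes, 17 rose after bleomycin averaged over both blockers, beside 4.25% of all genes, and 0 fell, with a median of 0.24. They included the histone chaperones Asf1b (0.76, adjusted p = 0.00376) and Chaf1b (0.56, adjusted p = 0.00518), the polymerase subunit Pole (0.89, adjusted p = 0.00741), the reductase subunit Rrm1 (0.47, adjusted p = 0.00911), Uhrf1, which helps copy DNA methylation (0.83, adjusted p = 0.00983), and Gins2 of the helicase (0.68, adjusted p = 0.0106). Under the CAV1 blocker 0 of these were called, beside 0.345% of all genes called higher, and under the control blocker 5, beside 1.96%.

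Between the blockers after bleomycin, 1 of the 51 was called, beside 1.61% of all genes, a share near that background. Ung, the uracil glycosylase that removes uracil from DNA, measured 13.73 to 14.24 (median 13.92) after bleomycin with the CAV1 blocker and 12.86 to 13.05 (median 13.00) after bleomycin with the control blocker, with no overlap. It was 0.98 ± 0.144 higher with the CAV1 blocker (adjusted p = 0.00175). The PBS CAV1 blocker arrays read 14.07 and 13.79, and the PBS control blocker arrays 12.69 and 13.80, so 1 lay near each of the bleomycin groups. Chaf1b, at -0.31 (adjusted p = 0.233), and Wdhd1, at -0.20 (adjusted p = 0.322), came next and did not pass.

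Genes that start or stop the cycle moved less as a list. Of 36 entry and brake genes 7 rose after bleomycin averaged over both blockers, beside 4.25% of all genes, and 0 fell, with a median of 0.16. Cdkn1a, the p53-induced inhibitor of cyclin-dependent kinases, ran from 11.55 to 13.37 (median 12.37) after bleomycin with the CAV1 blocker and from 12.13 to 13.04 (median 12.80) after bleomycin with the control blocker, against 10.29 and 10.60 after PBS with the CAV1 blocker and 11.28 and 12.52 after PBS with the control blocker. It rose by 1.41 ± 0.28 (adjusted p = 0.00819), and the second PBS control blocker array lay within the bleomycin range. Ccng1, another p53 target, rose by 0.86 ± 0.103 with no overlap (adjusted p = 0.000739).

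The factors that act on these promoters were also measured. E2f7, a repressor of the E2F family, rose by 0.78 (adjusted p = 0.0182), Mybl2, which works with the CHR-bound complex, by 0.49 (adjusted p = 0.0234), and Myc by 0.40 (adjusted p = 0.0301). Wee1, the kinase that holds back mitotic entry, rose by 0.54 (adjusted p = 0.0194), and Ccnd1, cyclin D, by 0.38 (adjusted p = 0.0428), a call kept in 10 of 27 alternatives. E2f1 read 9.60 to 10.10 (median 9.85) in the bleomycin CAV1 blocker arrays and 9.81 to 10.18 (median 9.93) in the bleomycin control blocker arrays, against 9.54 and 9.58 in the PBS CAV1 blocker arrays and 9.53 and 9.93 in the PBS control blocker arrays, and its difference of 0.26 ± 0.0918 did not pass (adjusted p = 0.119). Between the blockers after bleomycin, 0 of the 36 were called, beside 1.61% of all genes. The smallest p was that of Btg2, an antiproliferative gene, at -0.31 (adjusted p = 0.111), before Ccnd3 (0.21, adjusted p = 0.189) and Cdk6 (0.24, adjusted p = 0.472).

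Of the 40 members, 13 had more than 1 spot. For bleomycin minus PBS averaged over both blockers, the other spots of Birc5 gave 0.58 and 0.87, of Cdca8 0.73, of Racgap1 0.57, of Foxm1 0.34, of Kif2c 0.31, of Mcm3 0.29, of Cdc6 0.41 and of Mki67 1.14. The second spot of Tpx2, at a mean of 6.16, below the array medians, gave 0.16.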

How the data were processed

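The members and all gene lists were chosen with earlier results of these data known. Whole-lung RNA (0.2 µg) was labelled with Cy3 and read on Agilent arrays. The deposited value table holds log2 signals for 62976 spots and 16 arrays. Array medians lay between 6.51 and 6.52, as after a normalisation between arrays, which no source used here describes, and no pair of arrays was identical. The submitters' processing notes name limma, with no version given. Background correction is not given in the sources used here, and slide and scan date are not either, so no batch could be examined.

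A single gene symbol was paired with 31465 spots and none with 31511, and 2933 symbols were updated through RefSeq. The spot with the highest mean stood for each of 20863 genes. Genes above the array's 25th percentile in at least 2 arrays were tested (20304). A model with 4 group means was fitted in lmFit and eBayes to the whole set of 16 arrays (limma 3.58.1, R 4.3.3; 12 residual degrees of freedom), two-sided, with Benjamini-Hochberg adjustment over all genes tested and a threshold of 0.05. Intervals are 95%. The fit was tested on simulated data with noise drawn independently for each gene and array. Deviations shared by many genes of an array were therefore not covered. The number of arrays limits the precision, above all the 2 in each PBS group.

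Values are given for members set by role, for the 4 mitotic and 3 S-phase members with the smallest p after bleomycin, for the 3 and 2 with the smallest p between blockers, and for up to 6 and 3 such genes of each further list, plus Cdkn1a, Ccnd1 and E2f1. Other members and marker genes were named with their values in view. Alternatives were the dim filter, the mean of spots, array weights, the compared arrays alone, a replicate block, muscle and squamous covariates, and leaving out each array. Motifs were searched in RefSeq windows of GRCm38.p6. The columns used all belong to a sample.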

Additional observations from a re-analysis of the deposited data

Results flagged for a closer look

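In groups of 6 arrays, the gap of the most extreme array to its nearest neighbour was divided by the range of the group, and 3 of the 44 groups tested passed the critical value of 0.625. Chance alone passes about 1 group in 20. Foxm1 in array 1 of the bleomycin CAV1 blocker group, at 7.48, lay below the next value of 8.24, with a ratio of 0.64. The mean of the S-phase members in the same array, 9.45, lay below the next value of 9.90, with a ratio of 0.704. Mcm2 in array 6 of the bleomycin control blocker group, at 8.60, lay below the next value of 9.11, with a ratio of 0.67.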

How the results depend on the processing

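Averaged over both blockers, the mitotic count of 25 was 23 to 26 under the alternatives other than the replicate block, and 20 to 26 when single arrays were left out. The S-phase count of 5 was 1 to 7 with single arrays left out, 1 with array weights (1.81% of all genes called, 5.93% without) and 3 with the muscle or the squamous covariate. With the muscle covariate 5.47% of all genes were called, and with the squamous covariate 4.84%. The counts within 1 blocker, against 2 PBS arrays, moved most, and the share of all genes called moved with them. Under the CAV1 blocker (6 mitotic, 1 S-phase), leaving out single arrays gave 0 to 23 mitotic and 0 to 5 S-phase members. The stricter dim filter gave 11 mitotic members, beside 1.07% of all genes. Array weights gave 27 mitotic and 6 S-phase members, where 13.4% of all genes were called (0.517% without weights). The compared arrays alone, the muscle covariate and the squamous covariate each gave 0 and 0. They called 0%, 0.0493% and 0.0345% of all genes. The mean of a gene's spots gave 0 S-phase members, beside 0.629% of all genes. Under the control blocker (17 mitotic, 0 S-phase), leaving out single arrays gave 0 to 22 and 0 to 6. Array weights gave 0 mitotic members and 0% of all genes. The compared arrays alone gave 7 (1.08% of all genes), the muscle covariate 8 (1.2%) and the squamous covariate 9 (1.4%). The main fit called 2.41% of all genes there. Between the blockers after bleomycin, each alternative and each left-out array gave 0 members in both sets. After PBS and for the interaction, leaving out arrays gave 0 mitotic and 0 to 2 S-phase members. Fewer arrays enter when some are left out or only those compared are kept, and for the other settings the cause was not tested.

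Leaving out array 1 of the PBS control blocker group and array 1 of the bleomycin CAV1 blocker group together was chosen after seeing the data. It gave 26 mitotic and 9 S-phase members averaged over both blockers, 26 and 5 under the CAV1 blocker, and 23 and 7 under the control blocker. Between the blockers it gave 0 and 0 after bleomycin, 0 and 2 after PBS and 0 and 2 for the interaction. In that setting 10.8% of all genes were called averaged over both blockers, 5.86% under the CAV1 blocker, 20.1% under the control blocker, 20.7% after PBS and 17.6% for the interaction.

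Replicate numbers were not taken to pair the samples, since deviations of same-numbered bleomycin arrays correlated by more than 0.1 in 3 of 6 pairs. Between the bleomycin and the PBS control blocker arrays the same-numbered correlations were 0.318 and 0.309, each the best match of its number. The deviations of the PBS control blocker arrays from their group mean are mirror images of each other. For each bleomycin array the best match thus follows from the sign of the correlation alone. These matches are not independent and cannot show whether replicate numbers pair the samples. With the replicate block the counts were 0 mitotic and 0 S-phase members averaged over both blockers and within each blocker, and 0 in the other comparisons. Only replicate numbers 1 and 2 hold PBS arrays. With the block, the bleomycin difference averaged over both blockers thus came from arrays 1 and 2 of each group. The loss of calls therefore cannot show whether the samples are paired. Averaged over both blockers the medians were then 0.87 and 0.40, and 0.0443% of all genes were called, so calls were lost over the whole table.

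Signs turned in 3 named genes when 1 array was left out. None of them was called for bleomycin with all 16 arrays, and Ung was called in 2 of 27 alternatives. Aurkb ranged from -0.0418, without array 2 of the PBS CAV1 blocker group, to 0.1413. Cdk6 ranged from -0.0024, without array 1 of the PBS control blocker group, to 0.0757. Ung ranged from -0.3956 to 0.1579, without array 2 of the PBS control blocker group. The cause was not tested.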
